A study of Drosophila melanogaster with 4 samples.

Results

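Tweedle and Osiris genes are the members of 2 insect gene families of cuticle-forming cells, and they were taken as all genes of the deposited table whose symbol starts with Twdl or with Osi and a digit. The rule gave 50 genes of 14029 in the table, of which 26 are Tweedle and 24 are Osiris genes, with 63 transcripts in all. Of the Tweedle genes, TwdlU is annotated as a pseudogene. RNA of whole male larvae at the third instar was sequenced from wild type Canton S (genotype +/+, 2 libraries) and from larvae that carry a duplication of Inr-a, also called Pcf11 (genotype pcf11/+, 2 libraries, called duplication larvae here), all raised at 25 °C. Inr-a encodes a factor of pre-mRNA cleavage and transcription termination. Each library came from a pool of larvae, and the labels call both groups male, though no selection by sex is described for the duplication cross. The duplication larvae were progeny without green fluorescence from w[a]; Pcf11Dup/CyO GFP males and Canton S females, so they differ from the wild type stock in paternal chromosomes as well as in Inr-a copies, and these differences cannot be told apart. The deposited table gives, for each genotype, a mean of read counts scaled to library size (CPM). From these means the whole counts behind each library could be worked back, as described in the methods. Within a genotype, A names the deeper library and B the other, and neither letter stands for a replicate number.

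The outer surface, trachea and foregut of an insect are covered by cuticle, a layer of chitin and protein that epidermal cells secrete on their apical side and renew at each moult. Tweedle genes encode secreted structural proteins of this layer, and the family takes its name from the stout body of flies with a dominant mutation in TwdlD. Osiris genes encode membrane proteins of cells that form cuticle. They act at and near the apical surface, and Osi23 is required for the pores in the cuticle of olfactory hairs. Most Osiris genes lie side by side on chromosome arm 3R, in the Triplo-lethal region, where loss or gain of a copy kills the fly. Genes of both families are known to be switched on in pulses while new cuticle is made.

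Wild type libraries held 12558720 (A) and 11304266 (B) counts, and those of the duplication larvae 15423445 (A) and 14084653 (B). All 63 member transcripts had exactly 1 pair of whole counts. Pcf11 itself had 758 and 656 counts in wild type and 1285 and 1338 in duplication larvae, a log2 fold change of 0.62 with a standard error of 0.26 (limma, adjusted p = 0.180), and it was higher in both duplication libraries. Genes of the Y chromosome together had between 635 and 777 counts in each library, in both genotypes. Scaled to depth these were 61.7 (A) and 64.8 (B) CPM in wild type and 41.2 (A) and 55.2 (B) CPM in duplication larvae. Both duplication libraries were thus lower, and the reason was not tested.

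The families were expressed at low levels in these larvae. Together the 50 genes had 2531 counts over the 4 libraries, and 12 of them had 0 counts in every library. These were TwdlD, TwdlJ, TwdlK, TwdlR, TwdlY and TwdlZ among the Tweedle genes, and Osi10, Osi15, Osi16, Osi18, Osi19 and Osi23 among the Osiris genes. A count of 0 allows up to 3 counts, which is 0.126 CPM over both wild type and 0.102 CPM over both duplication libraries, with counting error only. Another 24 members had between 1 and 29 counts in all and did not pass the filter on low counts. The remaining 14 members (28.0%) passed it, against 83.0% of the 13901 genes with recovered counts. They are 8 Tweedle and 6 Osiris genes, and the values per library below are mostly theirs.

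TwdlX and Twdlalpha stood above all other members. They share a group of 4 Tweedle genes on the X chromosome, which spans 13.3 kb from 16731091 to 16744365 on the forward strand (BDGP6.54). Between them lie TwdlY and TwdlZ, both at 0 counts. TwdlX (FBgn0052571, 3 exons, 346 residues) and Twdlalpha (FBgn0052574, 3 exons, 388 residues) encode secreted cuticle proteins of the Tweedle type. They held 33.4% and 19.0% of all member counts. For a level per kilobase, the CPM of each transcript was divided by its own length and summed over the gene. On this scale TwdlX had a mean of 8.90 CPM per kb in wild type and 14.0 in duplication larvae. Twdlalpha had 5.69 and 7.49. Next came Osi2, with 2.10 CPM per kb in wild type and 1.04 in duplication larvae, and TwdlE, with 2.08 and 2.81. At these levels TwdlX lay above 51.2% and Osi2 above 24.2% of all genes in mean CPM.

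Of the 14 tested members, 0 differed between the genotypes at an adjusted p below 0.05 in limma, where 2.23% of all 11540 genes tested did. Adjusted p lay between 0.229 and 0.979. Osi2 alone had an unadjusted p below 0.05, in the lower direction, as did 8.61% of all genes in that direction and 20.8% in either. Of the tested Tweedle genes 6 had a log2 fold change above 0 and 2 below, with a median of 0.24, and of the tested Osiris genes 1 lay above and 5 below, with a median of -0.26. The median of all genes tested was 0.02. Standard errors of the members were between 0.30 and 0.45 on the log2 scale, and all but 1 of the 95% intervals hold 0.

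**Figure D1:**
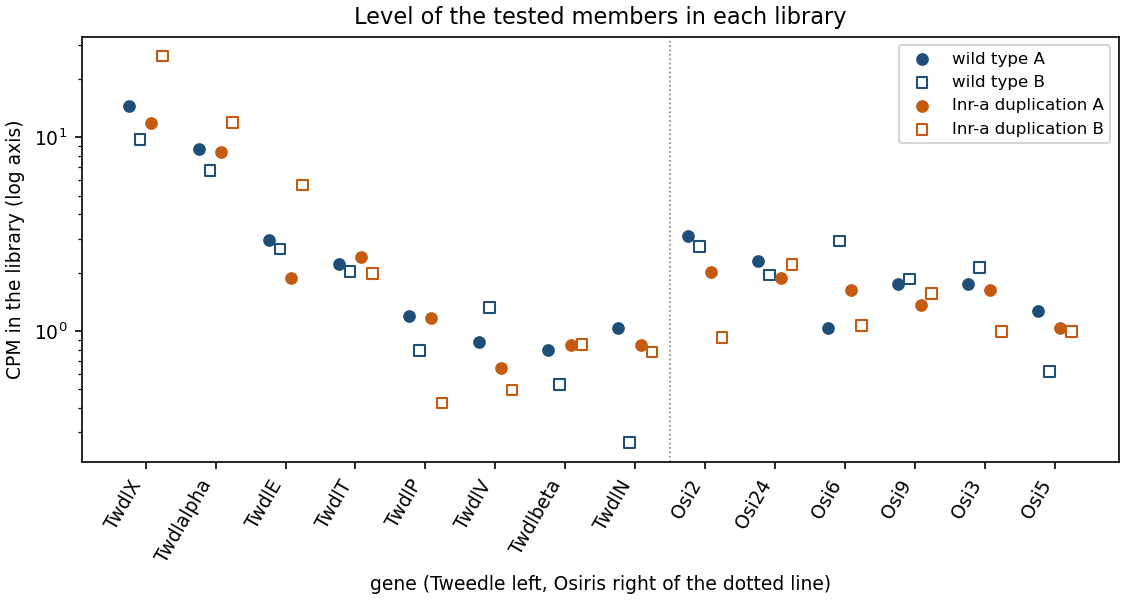
CPM of the 14 tested members (log axis) in wild type libraries A and B (blue) and duplication libraries A and B (orange), each point a library, with filled circles for A and open squares for B. TwdlX and Twdlalpha lie highest, and for TwdlX, Twdlalpha and TwdlE the highest point is duplication library B.

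TwdlX had 183 (A) and 110 (B) counts in wild type, and 183 (A) and 370 (B) in duplication larvae. As CPM these were 14.6 and 9.73 in wild type and 11.9 and 26.3 in duplication larvae. Library A of duplication larvae thus lay between the wild type libraries, and library B above both. The exact 95% binomial intervals of the duplication libraries, 10.2 to 13.7 CPM in A and 23.7 to 29.1 CPM in B, do not overlap, so the difference within the genotype is larger than counting error. Its mean was 12.2 ± 3.42 CPM (SD, n = 2) for wild type, against 19.1 ± 10.2 CPM (SD, n = 2) for duplication larvae. The log2 fold change was 0.58 (95% interval -0.09 to 1.25, adjusted p = 0.299 from limma). Without duplication library B it was 0.09, and 1.05 when library A was left out instead (adjusted p = 0.0529 from limma).

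Twdlalpha had 109 and 76 counts in wild type and 129 and 168 in duplication larvae, which are 8.68, 6.72, 8.36 and 11.9 CPM. Here too duplication library A lay between the wild type libraries and library B above them. Its log2 fold change was 0.40 (95% interval -0.23 to 1.02, adjusted p = 0.461 from limma).

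TwdlE lies alone on 2L (7857957 to 7860839, reverse strand) and encodes the shortest protein of the family, with 197 residues. Its counts were 37 and 30 in wild type and 29 and 80 in duplication larvae, or 2.95, 2.65, 1.88 and 5.68 CPM. In duplication larvae library A was thus below, and library B above, both wild type values. The log2 fold change of 0.24 (95% interval -0.56 to 1.04, adjusted p = 0.753 from limma) became -0.39 without duplication library B. Late larval genes also differed between libraries of a genotype. Sgs1, a glue gene of the salivary gland, had 519 (A) and 101 (B) CPM in wild type and 282 (A) and 519 (B) CPM in duplication larvae. Eig71Ea had 24.6 (A) and 59.2 (B) CPM in wild type and 18.5 (A) and 79.4 (B) CPM in duplication larvae. Eig71Eb and Eig71Ec were likewise higher in library B of both genotypes. Sgs1 was higher in library A of wild type and in library B of duplication larvae. Whether these genes or the stage of the larvae bear on the differences between libraries was not tested.

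The other 5 tested Tweedle genes had 3 to 37 counts in any library. TwdlV, in a group of 4 Tweedle genes that spans 12.2 kb of 3R, had 11 and 15 counts in wild type and 10 and 7 in duplication larvae. Both duplication libraries were below both wild type libraries in CPM, at a log2 fold change of -0.55 (95% interval -1.41 to 0.32, adjusted p = 0.465 from limma). Twdlbeta, alone on 2R, had 10 and 6 against 13 and 12 counts, or 0.796 and 0.531 against 0.843 and 0.852 CPM. Both duplication libraries were above wild type, though by little. The log2 fold change was 0.24 (95% interval -0.63 to 1.11, adjusted p = 0.774 from limma). TwdlN had 13 and 3 counts in wild type and 13 and 11 in duplication larvae, so that its wild type libraries enclosed the others. The gene's log2 fold change was 0.29 (95% interval -0.63 to 1.22, adjusted p = 0.737 from limma). TwdlT and TwdlP had log2 fold changes of 0.06 and -0.23, with overlapping libraries.

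The largest group of Tweedle genes holds 13 of them within 74.5 kb of 3R (26619118 to 26693590), from TwdlM to TwdlQ. This group holds TwdlD, which gave the family its name. Its summed counts were 44 and 24 in wild type and 46 and 26 in duplication larvae, or 2.81 ± 0.976 and 2.41 ± 0.804 CPM (SD, n = 2). Of its 13 genes 9 had counts, with TwdlP, TwdlN and TwdlL ahead. TwdlM had 6 and 4 counts in wild type and 2 and 1 in duplication larvae, too few for the filter. The 24 Tweedle genes other than TwdlX and Twdlalpha had a summed level of 11.9 and 9.38 CPM in wild type and 9.73 and 12.1 CPM in duplication larvae, a ratio of 1.02, and the libraries overlapped. TwdlX and Twdlalpha together had 23.3 and 16.5 CPM against 20.2 and 38.2 CPM, a ratio of 1.47. The Tweedle sum thus differed between genotypes mainly through this pair in 1 library. Over all 26 genes the ratio of 1.31 lay between 0.982 (without duplication library B) and 1.65 (without duplication library A) when a library was left out.

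**Figure D2:**
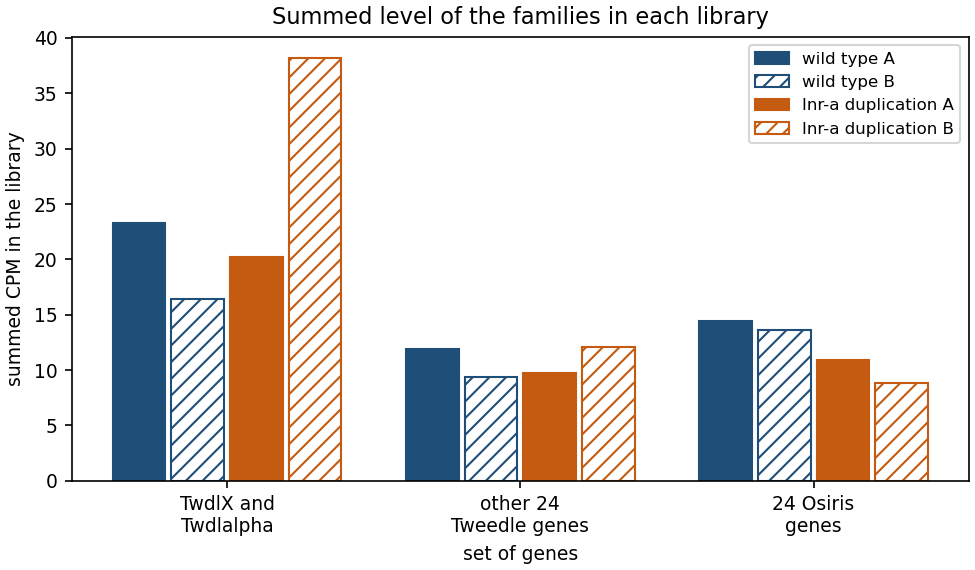
Summed CPM (linear axis from 0) in each library for TwdlX and Twdlalpha, for the other 24 Tweedle genes and for the 24 Osiris genes, with wild type in blue and the Inr-a duplication in orange, library A filled and library B hatched. The Osiris bars of duplication larvae (10.9 and 8.80 CPM) are below those of wild type (14.4 and 13.6 CPM), while those of the other sets overlap.

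The Osiris genes were lower in summed level in both duplication libraries. The 24 genes had 181 and 154 counts in wild type and 168 and 124 in duplication larvae, which are 14.4 and 13.6 CPM against 10.9 and 8.80 CPM. Their means were 14.0 ± 0.558 and 9.85 ± 1.48 CPM (SD, n = 2), a ratio of 0.703. No test was made of this sum, since the members were chosen with results of these data known. With each library left out the ratio lay between 0.628 and 0.777. In whole larvae, fewer cuticle-forming cells and less RNA per cell cannot be told apart. Of all single genes tested, 30.3% also had both duplication libraries below both wild type libraries in CPM. Within the Osiris cluster, by a split chosen after the values were seen, the summed counts from Osi1 to Osi9 were 148 and 142 in wild type and 150 and 112 in duplication larvae, or 11.8 and 12.6 CPM against 9.73 and 7.95 CPM, and the groups did not overlap. From Osi11 to Osi20 there were 33 and 12 counts against 18 and 8, or 2.63 and 1.06 CPM against 1.17 and 0.568 CPM, and the groups overlapped.

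Osi2 (FBgn0037410, 3R, 6209373 to 6213493, forward strand) had 39 and 31 counts in wild type and 31 and 13 in duplication larvae. In CPM these were 3.11 and 2.74 against 2.01 and 0.923, so both duplication libraries were below wild type. Its log2 fold change was -0.82 (95% interval -1.63 to -0.02, unadjusted p = 0.0444, adjusted p = 0.229 from limma), and with a library left out it lay between -1.31 (without duplication library A, adjusted p = 0.0811) and -0.36 (without duplication library B, adjusted p = 0.939). Osi2 has 3 transcripts in the table. FBtr0310413 held all wild type counts, and 18 and 13 of the counts in duplication larvae, while the other 13 counts of library A were assigned to FBtr0078593, which had 0 in the other libraries. FBtr0310413 alone fell short of the threshold in limma on transcripts, at a log2 fold change of -1.13 with a standard error of 0.49 (adjusted p = 0.467). The assignment of reads between transcripts that share most of their exons is an estimate of the quantification.

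Osi3, the neighbour of Osi2, had 22 and 24 counts in wild type and 25 and 14 in duplication larvae. A log2 fold change of -0.42 (95% interval -1.23 to 0.38, adjusted p = 0.549 from limma) was found for it. Osi9, known to act in the maturation of tracheal tubes, had 22, 21, 21 and 22 counts in the same order, with a log2 fold change of -0.21 (95% interval -0.99 to 0.57, adjusted p = 0.780 from limma). For both genes the CPM of the duplication libraries were below those of both wild type libraries, though by little. The nearest values of duplication larvae and wild type were 1.62 and 1.75 CPM in Osi3, and 1.56 and 1.75 CPM in Osi9. Osi6 differed within wild type, with 13 and 33 counts there and 25 and 15 in duplication larvae. Its log2 fold change of -0.30 (95% interval -1.17 to 0.57, adjusted p = 0.707 from limma) turned to 0.26 without wild type library B.

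Osi24 and Osi5 showed no common direction. Osi24 had 29 and 22 counts against 29 and 31, at a log2 fold change of -0.02 (95% interval -0.78 to 0.73, adjusted p = 0.979 from limma). Osi5 had 16 and 7 against 16 and 14, at 0.13 (95% interval -0.74 to 0.99, adjusted p = 0.895 from limma). The intervals of both reach to changes of over 0.7 on the log2 scale in either direction.

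Counted over the 14 tested members, both duplication libraries lay below both wild type libraries in CPM for 4 (TwdlV, Osi2, Osi3 and Osi9) and above both for 1 (Twdlbeta). Among all genes tested these shares were 30.3% and 22.9%. With TMM scaling the counts were 4 and 2, and the shares 26.7% and 27%. The members' count below wild type is near the share of all genes.

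**Figure D3:**
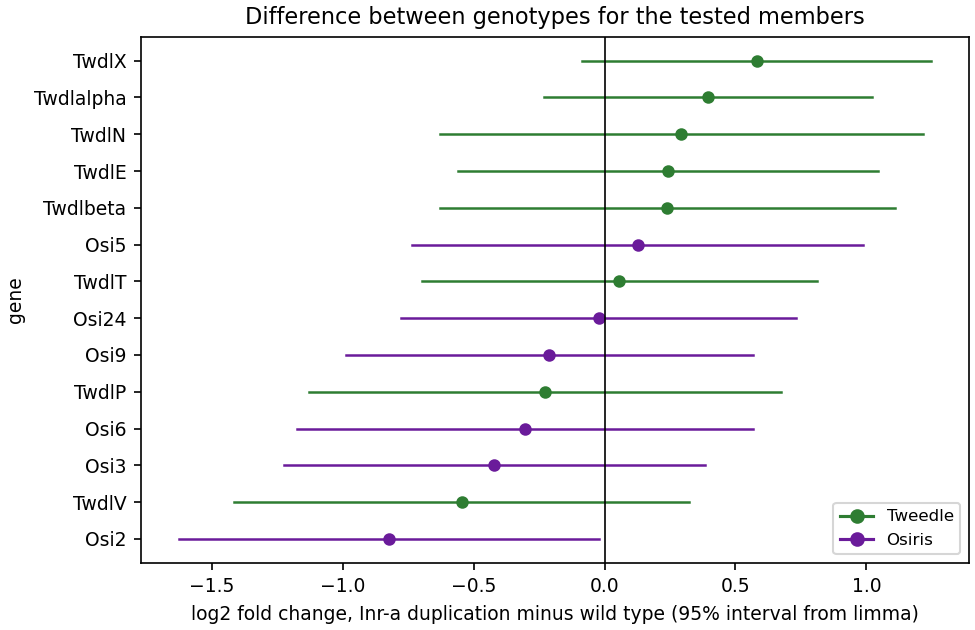
Log2 fold change of duplication larvae against wild type for the 14 tested members (points) with the 95% interval from limma (lines), Tweedle genes in green and Osiris genes in purple. Of the 14 intervals, only that of Osi2 (-1.63 to -0.02) leaves out 0, and its adjusted p was 0.229.

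The Osiris cluster could be followed gene by gene along 167.9 kb of 3R, from Osi1 at 6173549 to Osi20 at 6341424. It holds 20 placed Osiris genes, and Osi10, whose deposited transcript is not in BDGP6.54 under that name, was not placed. Counts were found for 16 of the 20. The tested genes Osi24, Osi2, Osi3, Osi5, Osi6 and Osi9 all lie in the part of the cluster up to Osi9. In the other part, Osi14 had the most counts, 16 and 4 in wild type and 7 and 2 in duplication larvae, followed by Osi12 with 9 and 2 against 3 and 2. Osi17, the longest member with 750 residues in its longest form and up to 10 exons, had 3 to 5 counts in each library. The Osiris genes outside the cluster were at or near 0. Osi21 on 2L had 3 counts and Osi22 had 1, all in duplication library B, and Osi23 had 0.

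The deposited table also lists 7 genes of other kinds in the span, of which 5 had 0 counts. NPFR, the receptor of neuropeptide F, had 11 and 19 counts in wild type and 31 and 9 in duplication larvae, at a log2 fold change of -0.0040 (adjusted p = 0.997 from limma). CG15597 lies between Osi12 and Osi13 on the reverse strand (6284462 to 6285200), and it is named here after its values were seen. It had 24 and 21 counts in wild type and 84 and 255 in duplication larvae, or 1.91 and 1.86 CPM against 5.45 and 18.1 CPM. The log2 fold change of this gene was 2.17 with a standard error of 0.39 (limma, adjusted p = 0.00214), higher in both duplication libraries. When duplication library B was left out the log2 fold change was 1.41 and the call was lost (adjusted p = 0.207), as it was with library size scaling (adjusted p = 0.0636) and with no filter on low counts (adjusted p = 0.115). The Osiris genes on either side, Osi12 and Osi13, had at most 9 counts in any library.

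**Figure D4:**
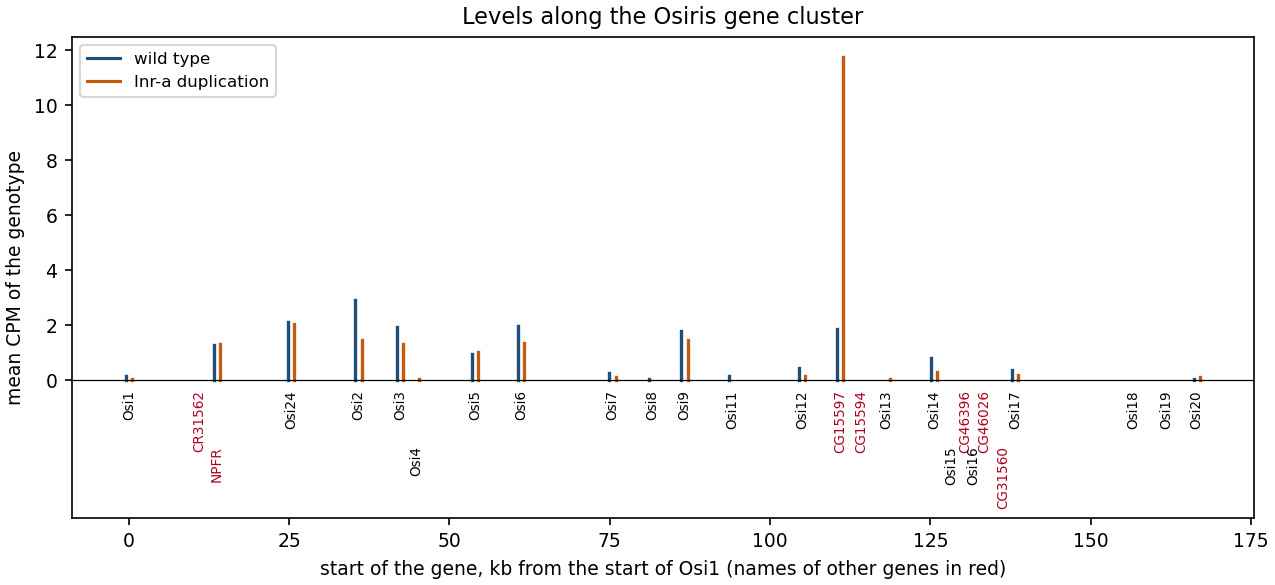
Mean CPM of wild type (blue) and of duplication larvae (orange) for each gene of the Osiris cluster that the deposited table lists. Genes are placed by the distance of their start from that of Osi1 in kb, with other genes named in red. The Osiris genes lie at or below 2.92 CPM in both genotypes, and CG15597 rises from 1.88 to 11.8 CPM.

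Of 9 members with more than 1 transcript in the table, 4 had counts on more than 1 of them. TwdlG had 3 and 1 counts in wild type, all on FBtr0078982, and 5 and 9 in duplication larvae, of which 4 and 4 were on FBtr0336709, which had 0 in wild type. Osi6 had 4 counts on its longer transcript FBtr0346344 in wild type library A and 4 in duplication library B. Osi17 had all wild type counts on FBtr0078610, and in duplication library A its 3 counts were on FBtr0334536. Of the 14 member transcripts that passed the filter, 0 were called by limma, as were 0 of all 20111 transcripts tested. At an unadjusted p below 0.05 there were 0 of the members and 2282 of all transcripts.

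For comparison, 8 lists were read, 6 of cuticle formation and its control, 1 of tracheal cell markers and 1 of late larval tissue genes of fat body and salivary gland. Together they have 92 genes in the table, 68 of them tested. At an adjusted p below 0.05, 4 of these 68 rose, where 1.72% of all genes tested did. None fell, where 0.503% of all genes tested did. The lists' median log2 fold change was 0.39. In chitin synthesis and deposition 2 of 11 genes rose. obst-E, a chitin-binding protein that shapes the larval and pupal body, went from 26.8 and 28.8 CPM to 63.0 and 72.9 CPM, a log2 fold change of 1.30 (adjusted p = 0.00590 from limma). serp, a chitin deacetylase, went from 395 and 294 counts to 752 and 1065 counts, a log2 fold change of 1.10 (adjusted p = 0.0295 from limma). The call of serp was lost when wild type library B (adjusted p = 0.174) or duplication library B (adjusted p = 0.370) was left out, with library size scaling (0.108) and with no filter (0.145). Among the third instar and prepupal cuticle genes 2 of 7 tested rose, both of them larval cuticle proteins. Of the 7, 6 had a log2 fold change above 0, and Pcp lay below at -0.95 (adjusted p = 0.116 from limma). Lcp1 and Lcp2 had transcripts of several pairs and were not tested. Their ratios of duplication to wild type means were 1.77 and 2.99. The other genes of this list did not pass the filter. At their low counts such ratios lay on both sides of 1, as with 0.537 in Edg78E and 4.38 in Acp65Aa. Lcp3 went from 266 and 312 CPM to 1694 and 2069 CPM (log2 fold change 2.73, adjusted p = 1.56e-06 from limma), and Lcp4 from 556 and 698 to 2059 and 2440 CPM (1.88, adjusted p = 0.000501, which was 0.0632 with no filter on low counts).

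No gene was called among 10 tested ZP domain proteins of the apical matrix, 9 genes of tanning and crosslinking, 15 of moulting hormones and ecdysis peptides, 8 transcription regulators of cuticle genes and 4 late larval tissue genes. Their median log2 fold changes were 0.28, 0.28, 0.31, 0.56 and 0.15. Of 8 tracheal cell markers 7 were found, none of them at 0, and serp was the 1 called. Their summed level was 311 and 251 CPM in wild type and 361 and 454 CPM in duplication larvae, higher in both libraries, while the Osiris sum was lower in both. The markers were not alike, with 6 log2 fold changes above 0 and 1 below. That of btl was -0.17, and that of uif, the most abundant, was 0.096. Gasp, serp and verm are also in the list of chitin synthesis and deposition. Whether tracheal cells bear on the Osiris values was not tested. Markers of the third instar were present in both genotypes, with a sum of the authors' means of 89466 and 101948 CPM over 15 genes of fat body and salivary gland. Single genes of this list differed in both directions, with ratios of duplication to wild type means from 0.731 (Fbp1) to 4.54 (Lsp1gamma). Of the 15 genes, 11 had a transcript of several pairs and could not be tested.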

How the data were processed

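The authors trimmed reads with Trimmomatic, quantified transcripts with Salmon (version 1.4.0 in their processing notes, build BDGP6) and averaged CPM over the libraries of a genotype. The deposited table holds these averages in CPM for 30090 transcripts, beside a deposited ratio of both averages, the authors' own comparison, which was not used. Library totals were read from the smallest deposited CPM steps, and each mean was searched for the pair of whole counts that gives it. Exactly 1 pair was found for 99.4% of wild type and 99.7% of Inr-a duplication transcripts above 0. The 128 genes with a transcript of several pairs, the lowest at 1003 CPM in wild type and 1054 CPM in the Inr-a duplication, were left out of values per library and of tests. Salmon divides reads between similar transcripts, and the similarity of the members was not measured.

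Gene values are sums over transcripts. A gene was tested if 2 libraries or more reached 10 counts after scaling to the median depth and its total was 15 or more. The test was limma 3.58.1 with trend (R 4.3.3). CPM were scaled by TMM, 0.5 was added and log2 taken, and p-values were adjusted after Benjamini and Hochberg over all genes tested, with a threshold of 0.05. A fold change on this scale understates that of low genes. The recovered counts are a reconstruction, so limma on CPM was kept as the test. Intervals of a single library are exact Clopper-Pearson intervals at 95% and cover counting error only. Positions, exons and residues come from Ensembl release 115 (BDGP6.54), which holds 49 of the 50 members. A planned search for promoter motifs was not made. Gene groups are members of one family less than 100 kb apart.

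Named are members that pass the filter and have an adjusted p below 0.05, or 10 CPM in either genotype, or are among the 6 largest changes of their family, and up to 3 called genes of each list. Some other genes are also named, to show how a list or group was made up. Members and lists were chosen with earlier results of these data known. Scripts were tested on simulated data. Values were computed with pandas 2.3.3, scipy 1.17.1 and numpy 2.4.6 under Python 3.11.15, and figures drawn with matplotlib 3.10.9.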

Additional observations from a re-analysis of the deposited data

How the results depend on the processing

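No member was called under any of the 10 alternatives, with a lowest adjusted p of 0.0529 (TwdlX without Inr-a duplication library A). Among 122 values of tested members in the 9 alternatives fitted to genes, 114 kept their direction, and the 8 that turned all came from leaving out a library. With each library left out, the log2 fold change lay from -0.14 to 0.079 for Osi24, -0.22 to 0.46 for Osi5, -0.88 to 0.26 for Osi6, -0.39 to 0.86 for TwdlE, -0.22 to 0.79 for TwdlN, -0.43 to 0.24 for TwdlP and -0.13 to 0.23 for TwdlT. Without the filter 38 members could be tested, with 2 at an unadjusted p below 0.05. All genes called were 199 higher and 58 lower. They were 59 and 17 with library size scaling, 45 and 14 with no filter and 0 and 0 on transcripts, and with a library left out they ranged from 87 to 542 higher and from 33 to 489 lower. The 4 list genes called higher were 7 with a pseudocount of 1 CPM, 2 with no filter, 0 on transcripts and 3 to 18 with a library left out, and those called lower were 0 to 1. The cause was not tested. The ratio of the Tweedle sum was 1.33 and that of the Osiris sum 0.723 with TMM scaling, and 1.15 and 0.756 without the most abundant member. Most tested members had 3 to 39 counts per library, and with 2 libraries per genotype the spread between libraries also widens the intervals. No paired analysis was possible because the recovered libraries carry no replicate numbers.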
